A study of Arabidopsis thaliana with 8 samples.

Results

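The 48 genes described here are the nuclear genes of Arabidopsis thaliana for the light-harvesting antennas (LHCA and LHCB), the nuclear-encoded subunits of photosystem I (PSA) and photosystem II (PSB), the small subunit of Rubisco (RBCS) and Rubisco activase (RCA). They were listed by locus and by the protein they encode, with earlier results of these data known. All 48 were found on the array and tested, out of 20618 genes tested in all. They comprised 9 genes of the trimeric antenna of photosystem II, 6 of its minor antenna, 6 of the photosystem I antenna, 12 photosystem I subunits, 10 photosystem II subunits and 5 Rubisco genes. Each gene was represented by its brightest probe, and its level is given as log2 of the signal after division by the array's 75th percentile.

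In the thylakoid membrane of the chloroplast, antenna proteins bind chlorophyll and pass light energy to the photosystems, whose electron flow drives the carbon fixation that Rubisco begins. The chloroplast genome encodes the reaction-centre cores and the large subunit of Rubisco, whereas the genes described here lie in the nucleus and their proteins are imported. Their transcripts are among the most abundant of green seedling tissue, respond to light and follow a daily rhythm.

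RNA came from the above-ground tissue of seedlings aged 6 days, kept at 22 °C with 16 h light and 8 h darkness. The groups were Col wild type, the single mutants sdg8 and sdg26, and the double mutant sdg8 sdg26, with 2 arrays each and 8 arrays in all. Both genes code for histone methyltransferases with a SET domain, and the sources used here do not name the mutant alleles. The design text mentions separate experiments and several RNA sets for every genotype without tying any of them to an array, so a p-value here reflects no more than the scatter among these 8 arrays, whose number limits the precision.

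SDG8 read -0.63 and -0.36 in wild type, -3.58 and -3.22 in sdg8, -0.38 and -0.49 in sdg26, and -2.71 and -2.95 in the double mutant. SDG26 read -1.09 and -1.04 in wild type, -1.07 and -0.996 in sdg8, -5.40 and -5.98 in sdg26, and -4.00 and -5.00 in the double mutant. Each targeted gene was thus low on every array labelled as its mutant and on no other. The 4 genotypes were not spread evenly over slides: slides 1 and 2 held 1 wild-type array each, slide 3 held the sdg8 pair, and slide 4 held the 4 arrays of sdg26 and the double mutant. Slide and genotype cannot be told apart except between the double mutant and sdg26. The summed signal of 13 seed maturation genes was 19.7 on wild type replicate 1 and 1.31 to 8.10 on the other arrays, and that of 9 root genes was 0.789 to 0.803 in wild type, 0.956 to 1.12 in the single mutants and 1.37 to 1.54 in the double mutant. No root gene was at 0. With limma at an adjusted p under 0.05, 3 of 9 root genes were called in the double mutant, where 6.26% of all genes were. They were the root hair genes EXPA7 and RSL4 and the endodermis gene CASP1, all higher than wild type. Their adjusted p-values (limma) were 0.0206, 0.0384 and 0.0420. RSL4 rose at least 1.99-fold, a bound because it was not well above background in wild type. In sdg8, where 2.68% of all genes were called, IRT1 was the only root gene called. This iron transporter fell by 1.45 on the log2 scale, with an adjusted p (limma) of 0.0128. The part of such tissue in the results was not tested, and in whole shoots fewer green cells cannot be told apart from less RNA per cell.

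No change was detected in the 48 photosynthesis genes in any mutant in the fit by genotype. The replicate number as a block called no member with the numbers as labelled. With the numbers of the double mutant exchanged, a setting added after seeing the data, it called LHCB4.1, PSAD1 and PSBO1 in the double mutant. With limma and Benjamini-Hochberg adjustment over all genes at 0.05, 0 of 48 were called in sdg8 against wild type, where 2.68% of all genes were called. The count was also 0 of 48 in sdg26, where 0.0097% of all genes were called, and 0 of 48 in the double mutant, where 6.26% were. At an unadjusted p under 0.05, 0, 2 and 6 members passed in sdg8, sdg26 and the double mutant, all with lower values than wild type, while 9.78%, 3.09% and 12.3% of all genes passed in that direction. The 2 in sdg26 were PSBS and PSBO1, and the 6 in the double mutant were PSBO1, LHCB4.1, PSAD1, PSAN, PSAE1 and RCA.

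The smallest adjusted p among the members (limma) was 0.403 in sdg8, 0.530 in sdg26 and 0.124 in the double mutant. The 95% confidence interval lay within 1 log2 unit of 0 for 47 members in sdg8, for 48 in sdg26 and for 43 in the double mutant. It lay within 0.5 log2 units for only 6, 3 and 5 members, so moderate differences could not be told from none for most. The members whose interval reached beyond 1 log2 unit were LHCB1.3 in sdg8, and LHCB1.1, LHCB1.4, LHCB4.1, PSAD1 and RBCS1B in the double mutant.

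Most differences nevertheless lay below 0. The value was below wild type for 46 of 48 members in sdg8, where 51.3% of all genes were below, for 41 of 48 in sdg26, where 46.6% were, and for 44 of 48 in the double mutant, where 46.8% were. The median difference of the members was -0.16 in sdg8, -0.14 in sdg26 and -0.20 in the double mutant. All genes tested had medians of -0.01, 0.02 and 0.03. The 1029 other genes among the brightest 5% had medians of -0.15, -0.11 and -0.16, close to those of the members, 45 of which belong to that brightness class. Of these other bright genes, 85.0%, 79.4% and 78.2% were below wild type in sdg8, sdg26 and the double mutant. With quantile normalization of the arrays, the medians of the members turned to 0.03, 0.08 and 0.04, and 15, 14 and 19 of 48 members were below 0. Without wild type replicate 2, the medians were 0.05, 0.04 and -0.01, so the sign of the common shift turned in the single mutants without that array, and in all 3 mutants with the quantile scaling.

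**Figure D1:**
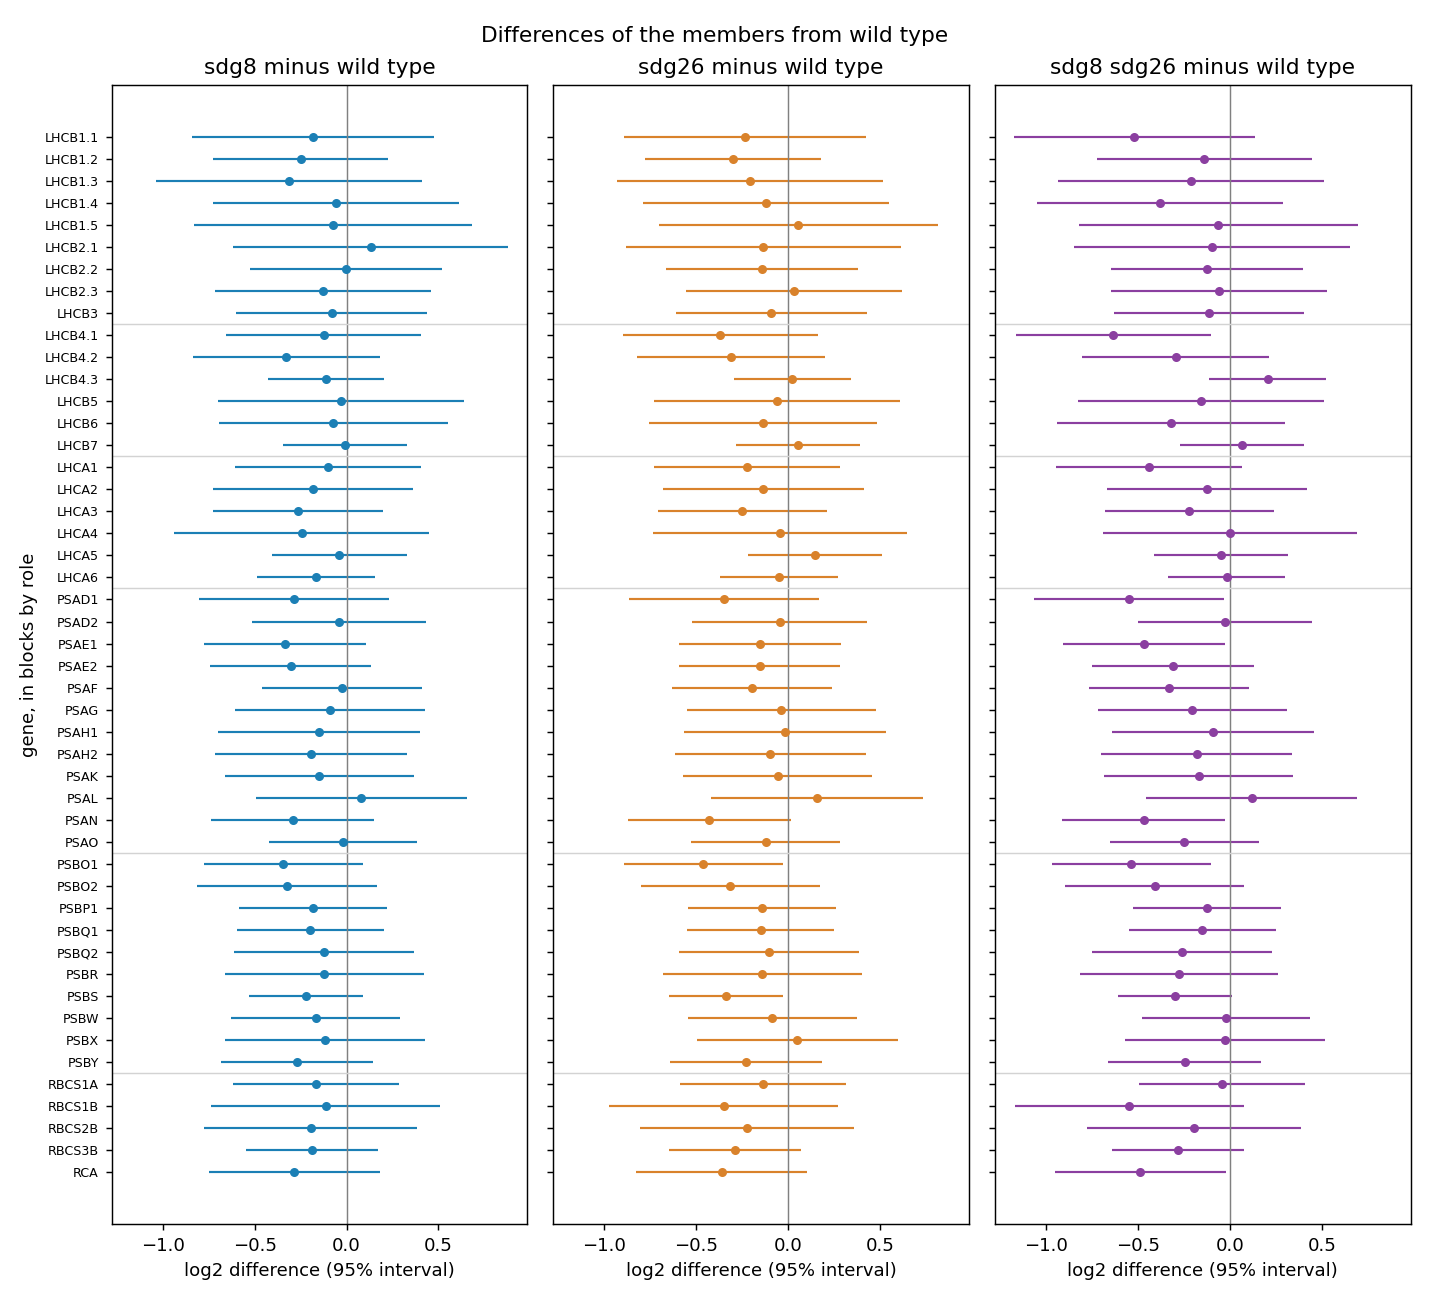
Log2 difference of each member from wild type in sdg8, sdg26 and sdg8 sdg26 (x axis), one gene per line in blocks by role (y axis, top to bottom: trimeric antenna, minor antenna, photosystem I antenna, photosystem I subunits, photosystem II subunits, Rubisco). Points are limma estimates and lines are 95% confidence intervals; most points lie left of 0, and nearly all intervals cross it.

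Complete separation of mutant and wild-type arrays was about as frequent among the members as among all genes, or less frequent. Both sdg8 arrays lay below both wild-type arrays for 13 of 47 members measured on all 4 arrays, where 25.9% of all genes did so, and 0 lay above, where 22% did. In sdg26, 6 of 47 members lay below, where 18.3% of all genes did, and 0 above, where 22.9% did. In the double mutant 13 of 46 lay below, where 25.4% of all genes did, and 1 lay above, where 29.4% did.

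The trimeric antenna LHCII, encoded by LHCB1, LHCB2 and LHCB3 genes, binds the largest pool of chlorophyll in the thylakoid. LHCB1.1 (AT1G29920) read 4.82 and 5.51 in wild type, 4.96 and 5.01 in sdg8, 4.73 and 5.13 in sdg26, and 4.89 and 4.40 in the double mutant. The sdg8 arrays lay within the wild-type range, and 1 array each of sdg26 and the double mutant lay below it. The difference of the double mutant from wild type was -0.52 ± 0.28 (SE), with an adjusted p (limma) of 0.282. The other LHCB1.1 probes gave -0.11 and -0.79 there. On the probe with -0.79, every mutant array lay below both wild-type arrays, so the overlap depended on the probe. The other LHCB1 genes gave -0.14 (LHCB1.2), -0.21 (LHCB1.3), -0.38 (LHCB1.4) and -0.06 (LHCB1.5) in the double mutant. LHCB1.2 had no usable spot on double-mutant replicate 2, so its double-mutant value came from 1 array. The median of all 9 genes of the trimer was -0.08 in sdg8, -0.14 in sdg26 and -0.13 in the double mutant.

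LHCB2.1 (AT2G05100) had the highest difference of the members in sdg8. It read 2.44 and 2.37 in wild type, 2.42 and 2.66 in sdg8, 1.76 and 2.78 in sdg26, and 2.14 and 2.47 in the double mutant. The sdg26 arrays alone spanned more than the range of the other genotypes. The sdg8 difference was 0.13 ± 0.32 (SE) and turned to -0.13 when all probes of the gene were averaged. LHCB3 gave -0.08, -0.09 and -0.11 in sdg8, sdg26 and the double mutant, each within its SE of 0.22.

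The minor antenna proteins connect the trimers to the photosystem II core, and they include CP29 (LHCB4), CP26 (LHCB5) and CP24 (LHCB6). LHCB4.1 (AT5G01530) had the lowest difference from wild type of the members in the double mutant. It read 4.43 and 4.73 in wild type, 4.39 and 4.53 in sdg8, 4.11 and 4.32 in sdg26, and 4.25 and 3.65 in the double mutant. Both sdg26 and both double-mutant arrays lay below wild type, and double-mutant replicate 2 was far lower than its partner. The differences were -0.13 ± 0.22, -0.37 ± 0.22 and -0.63 ± 0.22 (SE), the last with an adjusted p (limma) of 0.133. The 4 other LHCB4.1 probes gave -0.09, -0.17, -0.16 and 0.14 in the double mutant, so the low value was that of the brightest probe only.

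LHCB4.2 (AT3G08940) read 4.22 and 4.56 in wild type, 3.99 and 4.14 in sdg8, 3.88 and 4.28 in sdg26, and 4.304 and 3.89 in the double mutant. Only the sdg8 arrays lay clear of wild type, with a difference of -0.33 ± 0.21 (SE) and an adjusted p (limma) of 0.501. LHCB5 gave -0.03, -0.06 and -0.16 in the 3 mutants, and LHCB6 gave -0.07, -0.14 and -0.32. None of these exceeded the error by enough to be called.

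LHCB4.3 (AT2G40100), a further CP29 gene, went the other way. It read 1.90 and 1.80 in wild type, 1.68 and 1.80 in sdg8, 1.98 and 1.77 in sdg26, and 2.13 and 1.99 in the double mutant. Of 46 members measured on all arrays compared, it was the only one whose double-mutant arrays both lay above wild type. The difference was 0.21 ± 0.13 (SE), with an adjusted p (limma) of 0.370. Against sdg8 the double mutant was 0.32 higher, with an unadjusted p of 0.0494 and an adjusted p of 0.362. LHCB7 (AT1G76570), a rare antenna protein, read 0.61 and 0.65 in wild type, 0.47 and 0.78 in sdg8, 0.74 and 0.63 in sdg26, and 0.76 and 0.64 in the double mutant, and all genotypes overlapped.

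The antenna of photosystem I is built mainly from LHCA1 to LHCA4, while LHCA5 and LHCA6 link photosystem I to the chloroplast NDH complex. LHCA1 (AT3G54890) read 4.61 and 5.02 in wild type, 4.65 and 4.79 in sdg8, 4.43 and 4.76 in sdg26, and 4.58 and 4.18 in the double mutant. Only the double-mutant arrays lay below both wild-type arrays, by -0.44 ± 0.21 (SE) in the mean, with an adjusted p (limma) of 0.241. The 4 other LHCA1 probes gave -0.15, -0.18, -0.19 and -0.23 there. LHCA2 and LHCA3 gave -0.12 and -0.22 in the double mutant.

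LHCA4 (AT3G47470) read 5.05 and 5.83 in wild type, the widest pair of any member in that genotype, and 5.73 and 5.15 in the double mutant. Its double-mutant difference was 0.00 ± 0.29 (SE), a value that turned negative with background correction by normexp, with centring on the median and with the mean of all probes. LHCA5 (AT1G45474) was 0.15 ± 0.15 (SE) above wild type in sdg26 and -0.05 in the double mutant. LHCA6 gave -0.17, -0.05 and -0.02 with an SE of 0.13, which makes it among the most precisely measured members.

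On the stromal face of photosystem I, PSAD and PSAE form the docking site for ferredoxin. PSAD1 (AT4G02770) read 4.63 and 5.14 in wild type, 4.50 and 4.68 in sdg8, 4.46 and 4.59 in sdg26, and 4.54 and 4.12 in the double mutant. The sdg26 and double-mutant arrays lay below wild type, while sdg8 overlapped it. The double-mutant difference was -0.55 ± 0.22 (SE), with an adjusted p (limma) of 0.169, and the 4 other PSAD1 probes gave -0.04, -0.36, -0.04 and 0.08. PSAE1 (AT4G28750) read 4.76 and 5.12 in wild type, 4.65 and 4.56 in sdg8, 4.68 and 4.89 in sdg26, and 4.65 and 4.29 in the double mutant. Its sdg8 and double-mutant arrays lay below wild type, by -0.34 ± 0.19 and -0.47 ± 0.19 (SE), with adjusted p-values (limma) of 0.425 and 0.172.

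PSAN (AT5G64040), a subunit on the lumenal side near the plastocyanin site, read 4.68 and 4.84 in wild type, 4.51 and 4.43 in sdg8, 4.15 and 4.52 in sdg26, and 4.48 and 4.103 in the double mutant. Every mutant array lay below both wild-type arrays. The differences were -0.29, -0.43 and -0.47, each with an SE of 0.19 and with adjusted p-values (limma) of 0.490, 0.570 and 0.171. PSAF, which binds plastocyanin, gave -0.03, -0.20 and -0.33.

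The subunits PSAH, PSAL and PSAO lie where LHCII attaches during state transitions. PSAH1 gave -0.15, -0.02 and -0.09, PSAH2 gave -0.19, -0.10 and -0.18, and PSAO gave -0.02, -0.12 and -0.25. PSAL (AT4G12800) had no usable spot on wild type replicate 2. Its remaining wild-type value was 4.19, and the mutants read 4.16 and 4.38 in sdg8, 4.14 and 4.55 in sdg26, and 4.46 and 4.16 in the double mutant. Its values above wild type, 0.08, 0.16 and 0.12 with an SE of 0.24, therefore lacked the array on which most members were highest, and each turned below 0 when 1 array of that mutant was left out, replicate 2 of sdg8, replicate 2 of sdg26 or replicate 1 of the double mutant. PSAG and PSAK, on the antenna side, ranged from -0.04 to -0.20 over the 3 mutants.

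In photosystem II, PSBO stabilises the manganese cluster that splits water, with PSBP and PSBQ beside it. PSBO1 (AT5G66570) had the smallest p of the members in sdg8 and in the double mutant. It read 4.67 and 5.08 in wild type, 4.52 and 4.54 in sdg8, 4.25 and 4.58 in sdg26, and 4.42 and 4.26 in the double mutant. Every mutant array lay below both wild-type arrays. The differences were -0.34 ± 0.18, -0.46 ± 0.18 and -0.54 ± 0.18 (SE), with adjusted p-values (limma) of 0.403, 0.539 and 0.124. The 2 other PSBO1 probes gave -0.12 and -0.65 in the double mutant.

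PSBO2 (AT3G50820), its paralog, read 4.18 and 4.57 in wild type, 4.01 and 4.096 in sdg8, 3.90 and 4.22 in sdg26, and 4.17 and 3.77 in the double mutant. The sdg8 and double-mutant arrays lay below wild type, by -0.32 ± 0.21 and -0.41 ± 0.21 (SE). PSBP1 gave -0.18, -0.14 and -0.13, PSBQ1 gave -0.20, -0.15 and -0.15, and PSBQ2 gave -0.12, -0.10 and -0.26. These extrinsic subunits were below wild type in the mean in all 3 mutants without being called in any.

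PSBS (AT1G44575) senses lumen acidity and is required for the rapid dissipation of excess light energy. It read 4.07 and 4.22 in wild type, 3.93 and 3.91 in sdg8, 3.71 and 3.90 in sdg26, and 3.92 and 3.77 in the double mutant. Every mutant array lay below both wild-type arrays. The sdg26 difference was -0.34 ± 0.13 (SE), with an unadjusted p of 0.0366 and an adjusted p (limma) of 0.530. The other PSBS probe went the opposite way. It read 1.82 and 1.80 in wild type, 1.92 and 1.87 in sdg8, 1.92 and 2.11 in sdg26, and 1.90 and 1.99 in the double mutant, so each mutant array lay above both wild-type arrays. The remaining photosystem II subunits PSBR, PSBW, PSBX and PSBY lay between -0.28 and 0.05 in the 3 mutants by their brightest probes. The direction of PSBY depended on the probe, since its brightest gave -0.27, -0.23 and -0.25 in sdg8, sdg26 and the double mutant and its dimmest gave 0.41, 0.47 and 0.44. The dimmest read 3.52 and 2.68 in wild type and 3.39 to 3.73 on the mutant arrays. Its values above wild type thus rested on the low reading of wild type replicate 2.

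Rubisco fixes carbon dioxide, and activase removes inhibitory sugar phosphates from its active site. RBCS1B (AT5G38430) read 5.44 and 6.11 in wild type, 5.71 and 5.62 in sdg8, 5.32 and 5.53 in sdg26, and 5.50 and 4.96 in the double mutant. Wild type overlapped every mutant, and the double-mutant difference of -0.55 ± 0.26 (SE) had an adjusted p (limma) of 0.238. Without wild type replicate 2 and double-mutant replicate 2 together, a setting added after seeing the data, it was 0.05. RBCS1A, RBCS2B and RBCS3B gave -0.04, -0.19 and -0.28 in the double mutant.

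RCA (AT2G39730) read 4.77 and 5.14 in wild type, 4.60 and 4.73 in sdg8, 4.38 and 4.803 in sdg26, and 4.56 and 4.37 in the double mutant. Its sdg8 and double-mutant arrays lay below wild type. The double-mutant difference was -0.49 ± 0.20 (SE), with an adjusted p (limma) of 0.174, and the 8 other RCA probes gave -0.12 to -0.34.

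The members varied more between replicate arrays than between genotypes, and they varied together. Around each gene's mean over the arrays, the median of the members was -0.05 and 0.36 on the wild-type arrays, -0.08 and 0.00 on the sdg8 arrays, -0.20 and 0.13 on the sdg26 arrays, and 0.06 and -0.25 on the double-mutant arrays. Wild type replicate 2 was the high array and double-mutant replicate 2 the low one. Of 46 members measured on all 8 arrays, 38 were highest on wild type replicate 2, where 14.3% of all genes were highest. Of the same 46, 25 were lowest on double-mutant replicate 2, where 18.2% of all genes were lowest, and 13 on sdg26 replicate 1, where 6.87% were. The other bright genes had the same high and low arrays with a smaller range, from 0.19 on wild type replicate 2 to -0.13 on double-mutant replicate 2, and the medians of all genes stayed between -0.03 and 0.04.

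**Figure D2:**
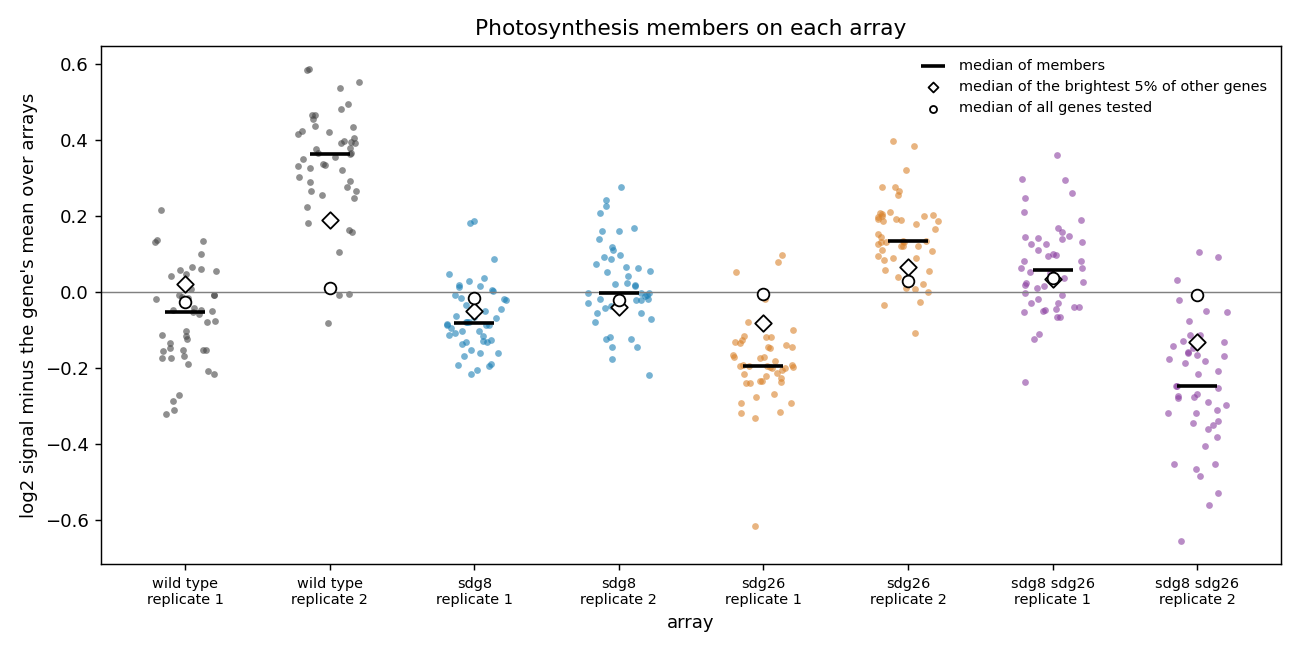
Level of each member around its own mean over the arrays (y axis, log2) on each of the 8 arrays (x axis); points are genes, bars their medians, diamonds the medians of the brightest 5% of other genes and circles those of all genes tested. The bar is highest on wild type replicate 2 at 0.36 and lowest on sdg8 sdg26 replicate 2 at -0.25, and the arrays of a genotype lie apart.

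Within 3 of the 4 genotypes nearly all members differed between replicates in the same direction, and in sdg8 fewer did. Replicate 2 was higher than replicate 1 for 45 of 47 members in wild type, with a median difference of 0.39, for 37 of 48 in sdg8, with 0.13, and for 46 of 48 in sdg26, with 0.33. In the double mutant it was higher for only 1 of 47, with a median of -0.30. The replicate numbers carry no order, and the pooled SD of the members' median between replicate arrays was 0.218, larger than the median difference of any mutant from wild type.

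**Figure D3:**
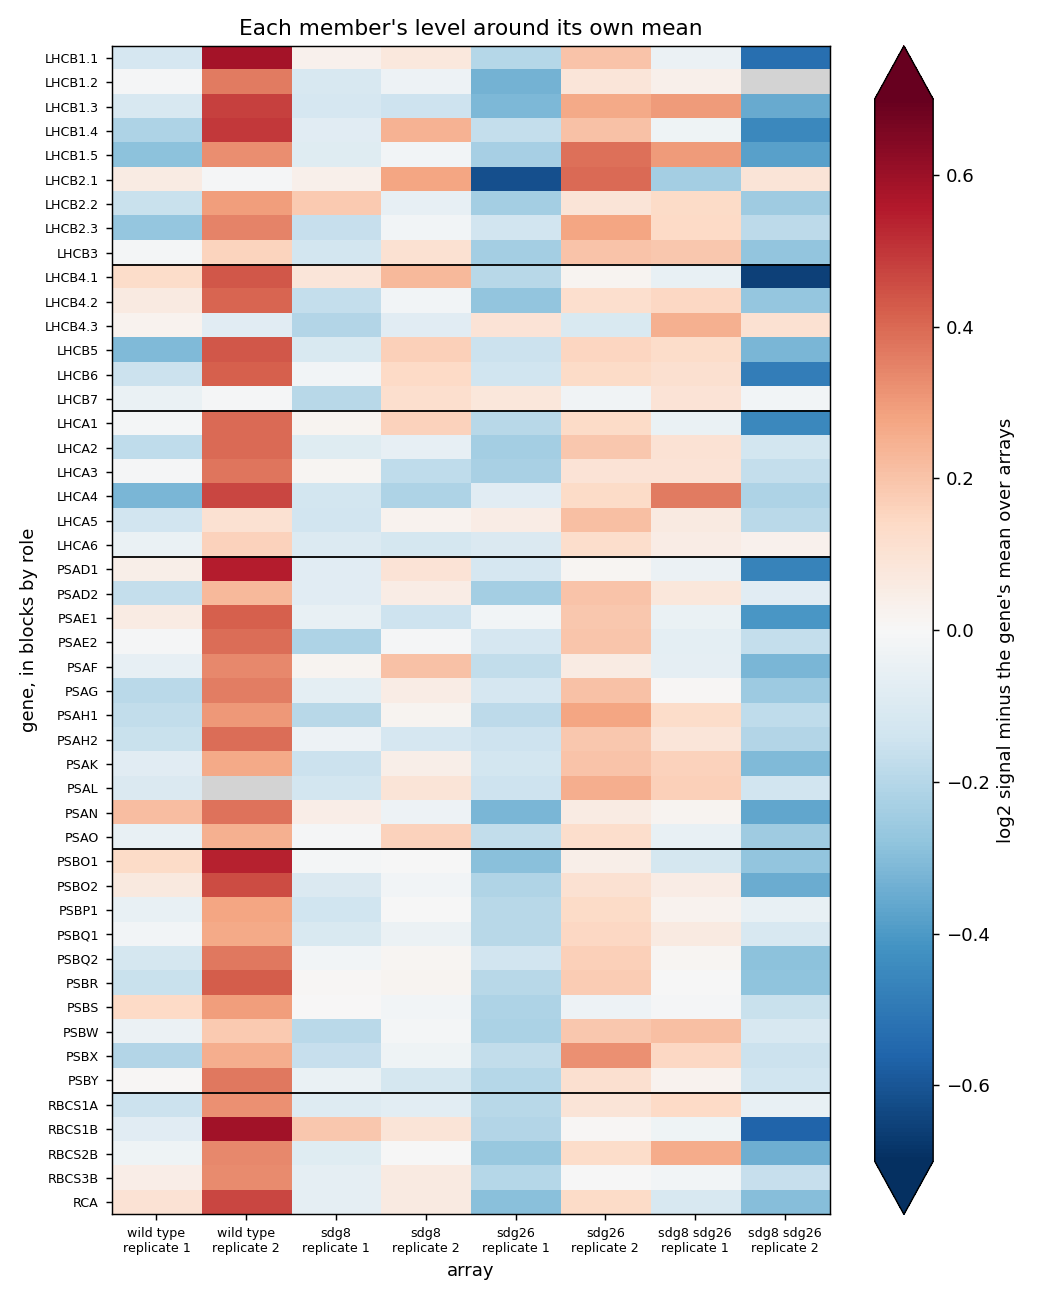
Level of each of the 48 members around its own mean over the arrays (colour, log2; red higher, blue lower, grey not measured) with arrays as columns and genes as rows in blocks by role. The column of wild type replicate 2 is red in nearly every row, and LHCB4.3, LHCB7 and LHCB2.1 depart from the shared pattern.

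Over the 8 arrays the median Pearson correlation between pairs of members was 0.778, against 0.426 between the other bright genes and 0.014 between 2050 genes taken evenly from all those tested. These points share the array, its scaling and the tissue, so the values describe co-variation over arrays and not over genotypes. LHCB1.2 and PSBO2 followed the median of the other members most closely, with correlations of 0.97 each. The value of LHCB1.2 leaves out double-mutant replicate 2, where it had no usable spot. LHCB4.3 (-0.31), LHCB7 (0.04) and LHCB2.1 (0.30) did not follow it.

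Most genes of 3 other photosynthesis lists were also higher on replicate 2 in wild type and sdg26 and lower on it in the double mutant. In the electron transport list replicate 2 was higher for 10 of 10 genes in wild type, 7 of 9 in sdg8, 10 of 10 in sdg26 and 0 of 10 in the double mutant. In the Calvin-Benson list these counts were 15, 8, 15 and 0 of 15, and in the chlorophyll synthesis list 15, 9, 13 and 3 of 15, so both were near even in sdg8. In the list of antenna import and light acclimation they were 8, 3, 4 and 3 of 10. Among 13 regulators of photosynthesis genes they were 6, 7, 7 and 9, with medians between -0.02 and 0.08, and among 10 clock genes 4, 7, 6 and 5. The difference between these lists was not tested.

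**Figure D4:**
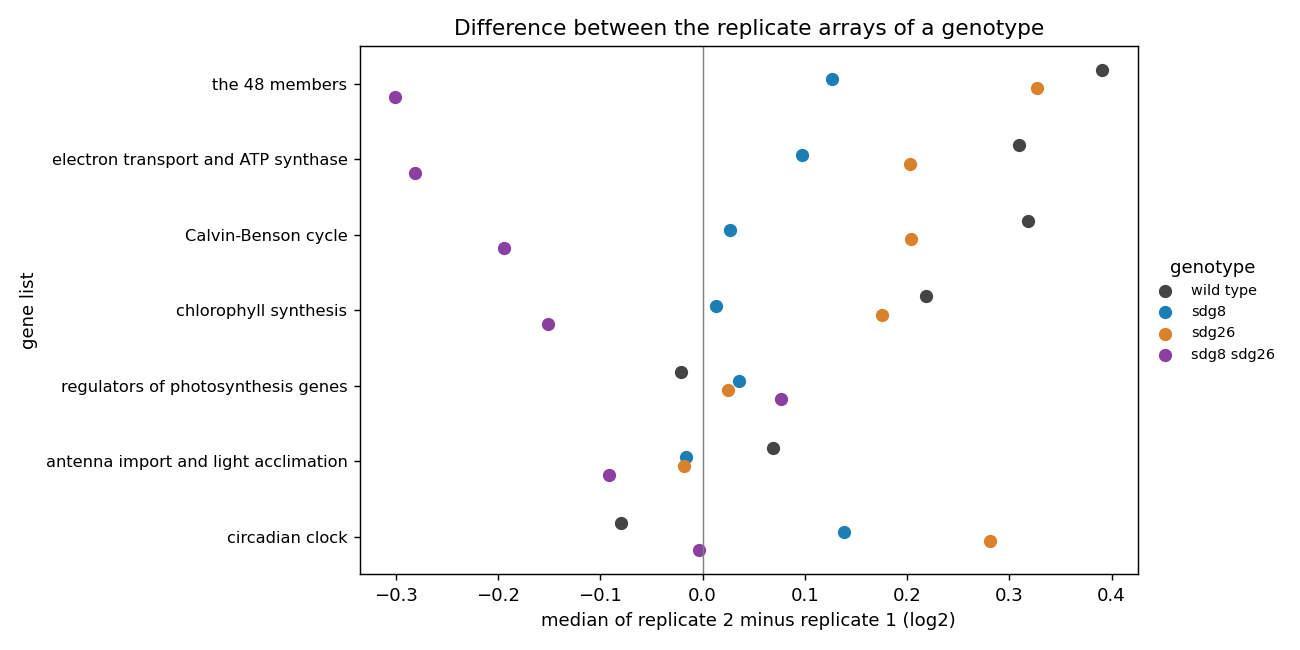
Median log2 difference of replicate 2 minus replicate 1 (x axis) for the 48 members and 6 other gene lists (y axis), one point per genotype. The members and the first 3 lists lie above 0 in wild type and sdg26 and below 0 in the double mutant, while the regulators lie near 0.

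Comparisons between mutants also called no member. The count was 0 of 48 for the double mutant against sdg26, where 2.21% of all genes were called, and this pair was hybridised on 1 slide. It was 0 of 48 for the double mutant against sdg8, where 0.281% were called, and 0 of 48 for sdg8 against sdg26, where 3.17% were. The medians of the members were -0.07, -0.01 and -0.02, beside 0.01, 0.04 and -0.02 for all genes. The interaction, which asks whether the double mutant departs from the sum of the single mutants, called 0 of 48 where 0.00485% of all genes were called, with a median of 0.07. At an unadjusted p under 0.05 only LHCB4.3 passed in these 4 comparisons, higher in the double mutant than in sdg8, where 8.51% of all genes passed in that direction. PSAE1 had the lowest difference in the double mutant against sdg26, -0.31, and LHCB4.1 the lowest against sdg8, -0.51. The smallest adjusted p-values of members (limma) in these 4 comparisons were 0.505, 0.362, 0.620 and 0.995.

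Several subunits are encoded by paralogs, and a constant scaling of an array cancels in the difference between the brightest probes of both genes. A shift that varies with brightness need not cancel where the probes differ in level, as for PSAE1 at 4.70 and PSAE2 at 3.32. PSAD1 minus PSAD2 was 0.46 and 0.58 in wild type, 0.25 and 0.30 in sdg8, 0.37 and 0.06 in sdg26, and 0.13 and -0.14 in the double mutant. All mutant arrays lay below both wild-type arrays with these probes. With the next brightest PSAD1 probe, sdg8 and the double mutant overlapped wild type and sdg26 lay above it, so the direction depended on the probe. LHCB4.1 minus LHCB4.2 was 0.21 and 0.17 in wild type, 0.40 and 0.39 in sdg8, 0.23 and 0.04 in sdg26, and -0.05 and -0.24 in the double mutant, so sdg8 lay above and the double mutant below wild type. The other PSAD1 and LHCB4.1 probes differed less from wild type in the double mutant than the brightest ones used here. The LHCB4.1 probe nearly as bright gave -0.09 there, beside -0.29 for LHCB4.2. With that probe both double-mutant arrays lay above wild type in the difference between the paralogs, so the direction depended on the probe. With any other LHCB4.2 probe in place of its brightest, the sdg8 arrays overlapped wild type in that difference.

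PSBO1 minus PSBO2 was 0.49 and 0.50 in wild type, 0.51 and 0.44 in sdg8, 0.34 and 0.36 in sdg26, and 0.25 and 0.49 in the double mutant. Only sdg26 lay clear of wild type, and its direction depended on the probe. The other PSBO1 probes gave -0.08 and -0.49 in sdg26, beside -0.31 for PSBO2. With the first, nearly as bright as the one used, both sdg26 arrays lay above wild type, and with the second both lay below. PSBQ1 minus PSBQ2 overlapped wild type in every mutant. PSAE1 minus PSAE2 was lower in the double mutant, at 1.39 and 1.14 against 1.44 and 1.405, and PSAH1 minus PSAH2 was slightly higher there, at 0.22 and 0.21 against 0.16 and 0.09. With any other PSAE1 probe the double mutant overlapped wild type. The other PSAH1 probe gave -0.44 in the double mutant, beside -0.18 for PSAH2, and with it the double mutant lay below wild type. These values are differences between probes and carry no test.

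**Figure D5:**
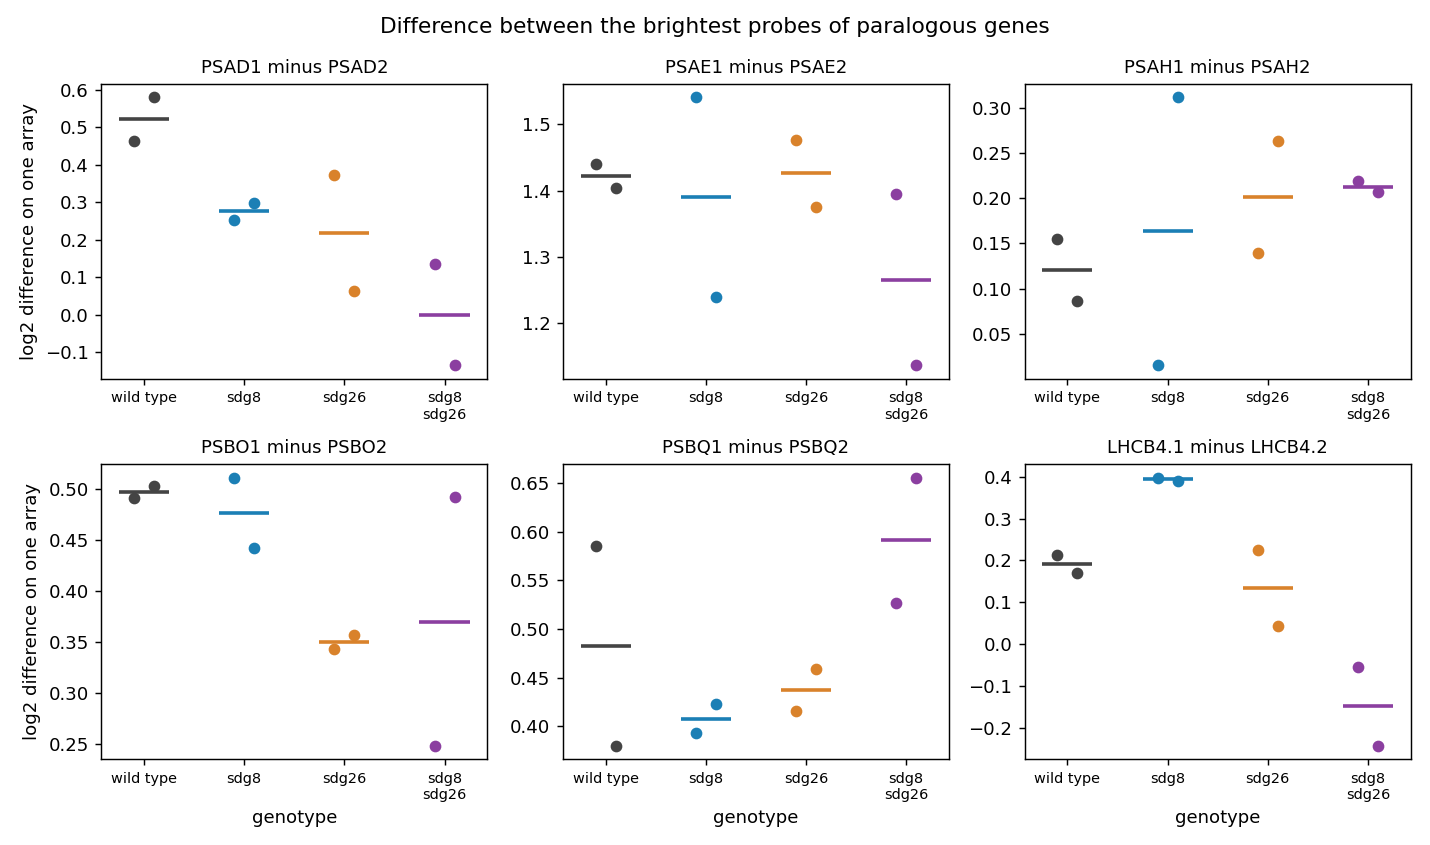
Log2 difference between the brightest probes of 2 paralogous genes on each array (y axis) by genotype (x axis), one panel per pair; points are arrays and lines the mean of 2. PSAD1 minus PSAD2 is below wild type in all mutants, LHCB4.1 minus LHCB4.2 is above it in sdg8 and below it in the double mutant, and PSBQ1 minus PSBQ2 overlaps. With other LHCB4.1 probes, not drawn, the double mutant is not below wild type. With other LHCB4.2 probes, not drawn, sdg8 overlaps wild type. With the next brightest PSAD1 probe, not drawn, no mutant is clear below wild type.

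The members had 163 probes, all bright enough to be kept, and 40 genes had several. Across probes, 152 were below wild type in sdg8, 139 in sdg26 and 151 in the double mutant. When each kept probe was tested on its own, a setting added after seeing the data, 0 of 163 were called in any mutant against wild type, where 2.31% of all probes were called in sdg8, 0.041% in sdg26 and 5.07% in the double mutant. At an unadjusted p under 0.05, 5, 6 and 16 of the 163 passed in sdg8, sdg26 and the double mutant, where 16.4%, 8.27% and 24.6% of all probes did. The smallest adjusted p of a member's probe (limma) was 0.0613, for the dimmer LHCB2.1 probe in the double mutant. That probe read 2.47 and 2.50 in wild type, 2.03 and 2.16 in sdg8, 2.25 and 2.44 in sdg26, and 1.95 and 1.94 in the double mutant, a difference of -0.55 ± 0.13 (SE). All its mutant arrays lay below wild type, whereas the brighter probe of the gene overlapped in every genotype.

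Probes of a gene differed in the double mutant by a median of 0.31 between the lowest and the highest. The widest spread, 1.17, was that of PSAD2, where the brightest probe gave -0.03 and a dimmer one -1.20. The dimmer probe read 3.36 and 4.01 in wild type, 2.95 on the usable sdg8 array, 3.42 and 3.65 in sdg26, and 3.36 and 1.61 in the double mutant, and double-mutant replicate 2 was its lowest array. PSBW had 2 dimmer probes at -0.76 and -0.65 in the double mutant beside -0.02 for the brightest. Some members lie side by side and are near-identical copies: LHCB1.1, LHCB1.2 and LHCB1.3 on chromosome 1, LHCB1.4 and LHCB1.5 and LHCB2.1 and LHCB2.2 on chromosome 2, and RBCS1B, RBCS2B and RBCS3B on chromosome 5. Cross-hybridisation between them was not tested, and single values of these genes are uncertain.

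Of 15 Calvin-Benson genes, CP12-1 alone was called, in the double mutant, where 6.26% of all genes were called. A count of 1 of 15 is about that share. CP12-1 encodes a small protein that binds GAPDH and phosphoribulokinase. It read 4.45 and 4.61 in wild type, 4.14 and 4.01 in sdg8, 3.95 and 4.09 in sdg26, and 3.88 and 3.55 in the double mutant. Every mutant array lay below both wild-type arrays, and in the double mutant it fell by 0.81 ± 0.15 (SE) on the log2 scale, 1.75-fold, with an adjusted p (limma) of 0.0319. The other 14 genes were not called, and FBA1, a plastid aldolase, gave -0.59 with an adjusted p of 0.114.

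Against the same shares of all genes, 2.68%, 0.0097% and 6.26% in sdg8, sdg26 and the double mutant, no gene was called in the mutants against wild type among 10 genes of electron transport and ATP synthase, 15 of chlorophyll synthesis, 13 regulators and 10 of antenna import and light acclimation. The medians of these lists in the double mutant were -0.32, -0.25, -0.18 and -0.11. GUN4, which activates magnesium chelatase, read 4.46 and 4.55 in wild type and 4.11 and 3.92 in the double mutant, with an adjusted p (limma) of 0.0766. SIG6, a sigma factor of the plastid RNA polymerase, read 2.03 and 1.96 in wild type and 1.53 on both double-mutant arrays, with an adjusted p of 0.0773. CPSRP54, which delivers antenna proteins to the thylakoid, read 2.87 and 2.93 in wild type and 2.38 and 2.54 in the double mutant, with an adjusted p of 0.0712. These genes lay below wild type on every double-mutant array without passing the threshold. Each was named because its p was the smallest of its list there, and 25.4% of all genes were separated in that direction.

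In the single mutants the smallest p of these lists belonged to ELIP2, an early light-induced protein, at -0.64 in sdg8, and to SIG6 at -0.47 in sdg26. CGA1, a GATA factor that promotes greening, gave -0.53 in sdg8, and FNR1, a ferredoxin-NADP reductase, gave -0.37 in sdg26. None was called. Of 10 clock genes, ELF4 alone was called against wild type, in the double mutant, where 6.26% of all genes were called. This part of the evening complex rose there by 1.82 ± 0.40 (SE), with an adjusted p (limma) of 0.0491, close to the threshold. Its levels were low and scattered. They were -5.05 and -5.71 in wild type, -5.03 and -4.52 in sdg8, -5.09 and -4.20 in sdg26, and -3.18 and -3.94 in the double mutant.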

How the data were processed

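Each array was scanned and read out by the authors: per the file headers the spot intensity comes from Agilent Feature Extraction 11.5.1.1, while the submitters' processing notes name version 9.1. The background had been subtracted in the processed intensity, per the file headers. The deposited spot flags (saturated, non-uniform, well above background) mark quality. A second deposited table, of log2 values with column medians of -2.37 to -2.29, differed from the levels used here by a constant per array (SD at most 0.00762), which settles its scale, centring and direction; it served as an alternative.

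Groups and replicate numbers came from the sample titles. Processed intensities were divided by the array's 75th percentile and put on the log2 scale. Non-uniform spots, 18 to 83 per array, were set to missing, and 0 were saturated. A probe was kept if both arrays of some genotype showed it well above background (34111 of 43603), and the brightest represented its gene. Probes were named through RefSeq transcripts and the TAIR10.1 gene table, and 34285 matched a locus. Limma 3.58.1 (R 4.3.3) fitted the genotypes over 8 arrays, with 4 residual degrees of freedom (prior 2.81), and p-values were adjusted by Benjamini-Hochberg over 20618 genes in each of 7 two-sided comparisons. PSAL and LHCB1.2 each lacked 1 array. The steps were tested on simulated data. Normexp was run on the median signal, and motif counts in promoters are not reported here.

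Members singled out by rule were those called and the 4 largest differences in each direction for each mutant. Other members are named by role, and LHCB1.1, LHCA1 and PSBS among these are also given with their array values. The members and all gene lists were chosen with earlier results of these data known. Alternatives covered background correction, scaling, filters, probe choice, slide and replicate blocks, and leaving out each array.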

Additional observations from a re-analysis of the deposited data

How the results depend on the processing

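No member was called under any alternative run, in any of the 7 comparisons, apart from 1 setting. That setting, added after seeing the data, treated the replicate number as a block with the numbers of the double mutant exchanged, because deviations of equal numbers correlated at -0.159 to -0.399 with the double mutant and at 0.146 to 0.388 among the other genotypes; it called 3 members in the double mutant against wild type (LHCB4.1, PSAD1 and PSBO1) and 2816 genes in place of 1290. The numbers as labelled were not taken to pair the samples, because they went together among wild type, sdg8 and sdg26 but not with the double mutant, and the replicate block with the numbers as labelled called 0 members and 349, 1 and 900 genes in sdg8, sdg26 and the double mutant. The median of the members moved by more than the spread between replicate arrays with quantile normalization (0.0831 in sdg26, 0.0405 in the double mutant) and without both arrays that stand apart (0.14 in the double mutant). Leaving out 1 array at a time, it ranged from -0.38 to 0.0475 in sdg8, from -0.39 to 0.0372 in sdg26, from -0.41 to -0.0076 in the double mutant and from -0.11 to 0.31 for the interaction, the lowest without wild type replicate 1 in the mutants. Values of single members near 0 turned negative: LHCB1.5 in sdg26 (-0.13 with both normexp settings, -0.23 with the mean of probes, and -0.25 to 0.36 leaving out 1 array), LHCB7 in the double mutant (-0.0850 and -0.12 with normexp) and in sdg26 (-0.0294 with normexp on the local background), LHCA4 in the double mutant (-0.23 and -0.32 with normexp, -0.0236 centred on the median, -0.27 with the mean of probes, and -0.39 to 0.39 leaving out 1 array), LHCB2.1 in sdg8 (-0.13 with the mean of probes), and PSAL with the exchanged block (-0.0737 in sdg8, -0.0345 in the double mutant) and leaving out 1 array (-0.0297 to 0.19 in sdg8, -0.0445 to 0.36 in sdg26, -0.0311 to 0.27 in the double mutant). RBCS1B in the double mutant turned to 0.0510 without both arrays that stand apart. The causes were not tested. The number of all genes called ranged from 0 with normexp on the local background, where 523, 358 and 2148 genes had an unadjusted p under 0.05 in sdg8, sdg26 and the double mutant, to 1133, 21 and 2816 with the exchanged block. That normexp setting also moved the median of all genes to -0.13, 0.20 and -0.22. The interaction has no value when the arrays of each pair are fitted alone. Signal did not limit the members, each well above background on 8 of 8 arrays.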
